A study of Mus musculus with 6 samples.

Results

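Dense groups of H3K9me3 regions on mouse chromosome 4 were examined in thymocytes with and without KAP1. The members were chosen by the positions of the called regions, with earlier results of these data known. Wild-type regions of chromosome 4 were sorted by start, neighbours at most 100 kb apart were chained, and chains of 3 or more regions were kept. Knockout regions that touched the span of such a chain were added. This gave 14 chains with 260 of the 3748 wild-type regions (348 of which lie on chromosome 4) and 67 of the 605 knockout regions (75 on chromosome 4). A single chain, called the distal chain here, held 156 of the 260 wild-type members, and the other 13 chains held 104. The largest gap inside a chain was 92388 bp and the smallest gap over the limit 100739 bp. The regions left out were 9 pairs of neighbours and 70 single regions, and 2 of the chains kept had no more than the required 3 regions.

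The study used chromatin immunoprecipitation followed by sequencing (ChIP-seq) on total thymocytes, which are mostly developing T cells, from mice of mixed C57BL/6 / sv129sv background. The 2 H3K9me3 libraries used here are 1 of the wild type and 1 of the T cell-specific Kap1 knockout. The labels do not name the driver of the deletion, and they do not say how many mice entered a library or how old they were.

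H3K9me3, trimethylation of lysine 9 of histone H3, marks heterochromatin, the compact and mostly silent part of the genome. KAP1, encoded by Trim28, does not read DNA itself. KRAB zinc finger proteins bind DNA and recruit it, and KAP1 in turn brings SETDB1, an enzyme that writes the mark, and HP1 proteins that read it. Best known targets are endogenous retroviruses and other transposable elements, and also clusters of KRAB zinc finger genes, where the mark covers long stretches. Distal mouse chromosome 4 carries such a gene cluster, built by repeated local duplication. The lists give positions on the mm9 build and no gene names, and no sequence or gene annotation of that build was used here, so regions are named by position and no sequence is printed.

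A wild-type region was counted as having a knockout partner when a knockout region overlapped it by at least 1 base. With 1 library per genotype there is no replicate error and no test of the genotypes. Intervals are Wilson 95% intervals, which cover counting error only and treat neighbouring regions as independent. Read counts are not part of the lists, so sequencing depth is unknown. A region that is not listed is one that was not called, and the mark can still be present there.

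Many wild-type regions of the distal chain had a counterpart in the knockout list, and few in the other chains had one. In the distal chain 77 of 156 wild-type regions had a knockout partner, or 49.4% (interval 41.6 to 57.1%). In the other chains 8 of 104 had one, or 7.69% (3.95 to 14.4%), and among the chromosome 4 regions outside all chains 6 of 88 had one, or 6.82% (3.16 to 14.1%). Over all wild-type regions of the genome the share was 17.5%, so the distal chain lay above this background and the other chains below it. When 50% of a wild-type region had to be covered, 55 distal regions (35.3%) and 5 regions of the other chains (4.81%) passed, against 13.5% over the genome. With reciprocal overlap of 50% the counts were 35 (22.4%) and 5 (4.81%), against 9.95%. Among the 260 members together 85 had a partner, or 32.7% (27.3 to 38.6%), a value that describes neither group of chains. The difference between the distal chain and the others was not tested, since both come from the same pair of libraries. It was 41.7 percentage points, and between 17.6 and 63.8 points under the other overlap, width, joining and chain settings that were run.

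**Figure D1:**
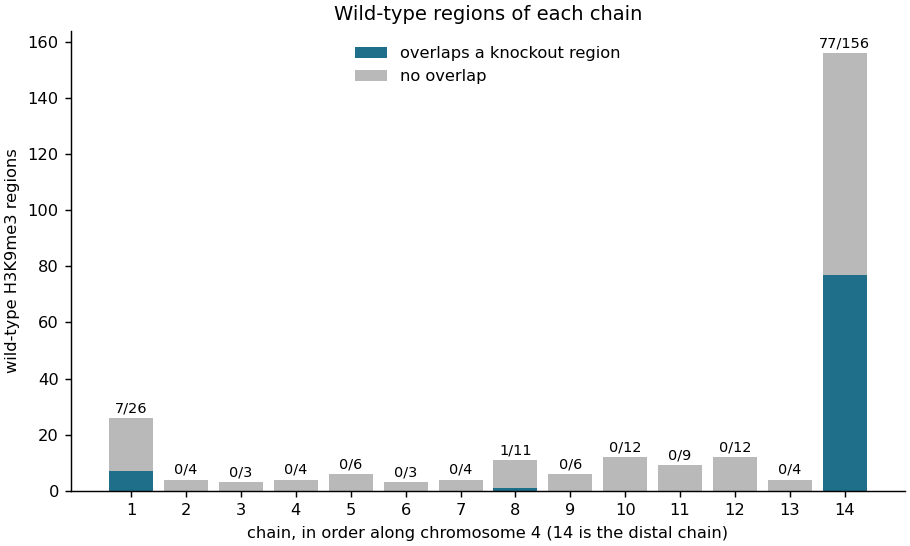
Number of wild-type H3K9me3 regions in each of the 14 chains (vertical axis), in order along chromosome 4 (horizontal axis), with the regions that overlap a knockout region in blue and those that do not in grey. Only chains 1, 8 and 14 hold a region with a knockout partner, with 7 of 26, 1 of 11 and 77 of 156 regions.

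Chains of the same kind on other chromosomes gave a scale for these shares. By the same rule the other chromosomes held 201 chains with 2051 wild-type regions, of which 457 had a partner, or 22.3% (20.5 to 24.1%). Of the 22 chains elsewhere with at least 20 regions, 4 had a larger share than the distal chain and 18 a smaller one, with a median of 18.7%. The distal chain was the largest of all by number of regions, since the next held 99. Its share of regions with a partner was therefore high but not the highest among large chains. It also carried a large part of what the knockout list held anywhere, with 17.5% of all knockout bases and 11.4% of all wild-type bases.

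The distal chain ran from 144955729 to 147183298 on chromosome 4, a span of 2228 kb. Its members were close together and wide. Gaps between its successive members in wild type had a median of 2945 bp, with the largest 61563 bp, while 1065533 bp separated the chain from the nearest region before it and 2000813 bp from the nearest after it. Wild-type regions covered 1269 kb, or 56.9% of the span. Their median width was 3395.5 bp (quartiles 1803 and 8472 bp), against 1849 bp (1253 and 2745 bp) in the other chains and 579.5 bp outside the chains. Closeness and number are what the rule chose, but width is not. Regions of at least 10 kb numbered 34 of 156 in the distal chain and 3 of 104 in the other chains.

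Knockout regions in the distal chain were fewer and covered less. There were 59, with a median width of 6718 bp, and 25 of them were at least 10 kb wide. They covered 818 kb, a ratio to wild type of 0.645, against 0.419 over the whole lists. Of the 59, 58 had a wild-type partner. The share over all knockout regions was 91.4%, but members had to touch a span that wild-type regions cover densely, so nothing is read from the count. Within the chain 758 kb were common to both libraries. This made up 59.8% of the wild-type bases and 92.7% of the knockout ones, against 38.4% and 91.6% over the whole lists. Only 59.5 kb were called in the knockout alone, while 510 kb were called in wild type alone. Over the whole lists these lengths were 394 kb and 6873 kb.

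**Figure D2:**
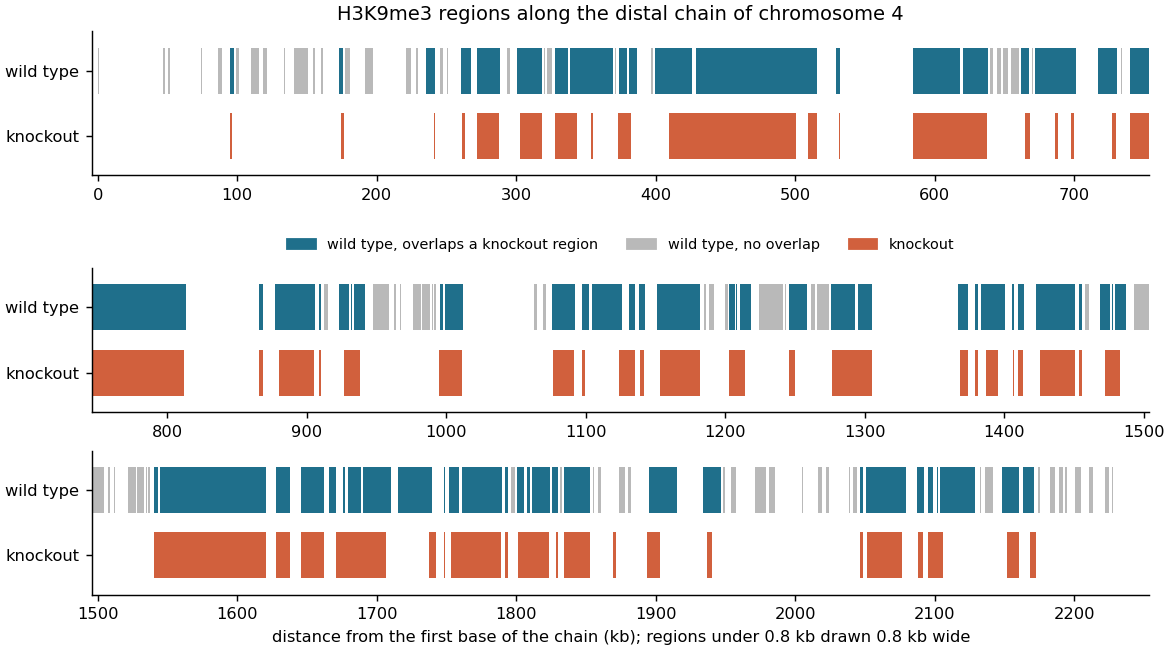
Wild-type and knockout H3K9me3 regions along the distal chain, as distance from its first base in kb on the horizontal axis, in 3 consecutive panels. Wild-type regions that overlap a knockout region are blue, those that do not are grey and knockout regions are orange. Wide blue blocks sit over orange ones along the chain, and most grey regions are narrow, with a median width of 2318 bp.

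The chain was cut into steps of 200 kb, counted from its first base, with each region counted in the step of its start and covered length cut at the step edges. Knockout coverage relative to wild-type coverage was lower at its ends than in its middle. In the first step, wild-type coverage was 45.3 kb and knockout coverage 4.15 kb, and 2 of 16 wild-type regions had a partner. In the last, which is only 27.6 kb long, wild-type regions covered 10.9 kb, the knockout list had none, and 0 of 4 regions had a partner. The interval of the first share overlaps those of the steps in between except steps 3, 7 and 9. That of the last share overlaps all of them except step 9. By share, the ends are therefore not resolved from most of the middle. Both outer steps were also the least covered in wild type, with 22.6% and 39.5% of their length.

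Knockout coverage was greatest in steps 3 and 9. From 145355729 to 145555728, step 3, wild-type coverage was 132 kb and knockout coverage 113 kb, a ratio of 0.858, and all 3 wild-type regions that start there had a partner. From 146555729 to 146755728, step 9, the values were 147 kb and 127 kb, a ratio of 0.865, and 11 of 12 regions had a partner. These are the steps in which the lists came closest to each other. Step 4 was the most covered in wild type, with 159 kb or 79.7% of its length, and its knockout coverage was 108 kb.

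The other steps lay between these. Their ratios of knockout to wild-type coverage ran from 0.504 in step 11 (107 kb and 53.9 kb) to 0.734 in step 8 (139 kb and 102 kb). The share of regions with a partner ran from 42.1% (8 of 19, step 11) to 69.2% (9 of 13, step 7). With 11 to 19 regions in each of them, the intervals of these shares overlap, so the order of these steps by share is not resolved. In each step with a knockout region the knockout covered less than wild type.

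**Figure D3:**
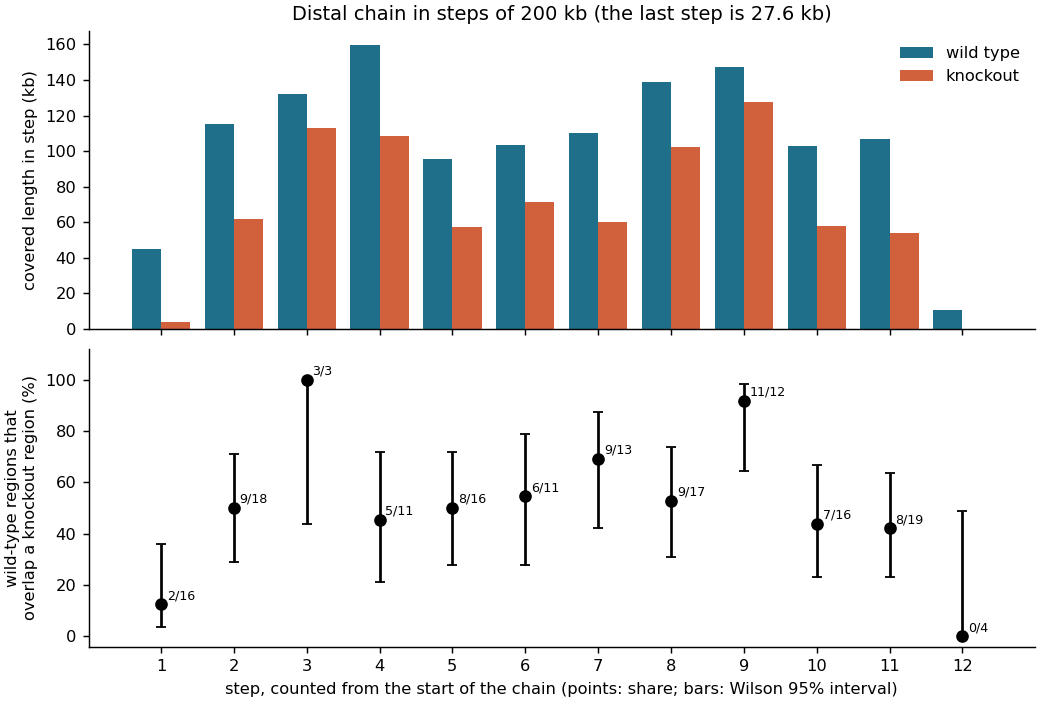
The distal chain in steps of 200 kb, with covered length per step in kb for wild type (blue) and knockout (orange) above, and below the percentage of wild-type regions that overlap a knockout region, with Wilson 95% intervals. Knockout coverage is 4.15 kb in step 1, 113 kb in step 3, 127 kb in step 9 and 0 in step 12.

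Chaining with a limit of 25 kb instead of 100 kb divided the distal chain into 6 pieces, 1 of which was a single 160 bp region at its start. The other 5 held 12 to 71 wild-type regions. From 145002587 to 145487948, 13 of 35 regions had a partner (37.1%). From 145540133 to 145769051, where wild-type regions covered 82.3% of the piece, 6 of 12 had one (50.0%). The remaining pieces had 8 of 16 (145821551 to 145967388), 12 of 21 (146018773 to 146260620) and 38 of 71 (146322184 to 147183298), or 50.0%, 57.1% and 53.5%. No piece of several regions had all or none of its regions in the knockout list, so presence and absence alternated on a scale finer than these pieces.

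Runs of wild-type regions without a partner show this finer scale. The longest was 9 successive regions from 146903805 to 147000235, covering 27.8 kb, with no region wider than 8.07 kb. The next was the far end of the chain, 8 regions from 147129904 to 147183298. A run of 7 lay near the start of the chain, from 145054708 to 145117323. A pair of runs of 7, from 145903200 to 145948182 and from 146448555 to 146493542, each covered 26.1 kb and are copies of each other, as described further on.

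Wide regions of the distal chain mostly had a partner and narrow ones mostly did not. All 6 regions of at least 30 kb had one, as did 25 of 28 between 10 and 30 kb, 28 of 55 between 3 and 10 kb, 12 of 43 between 1 and 3 kb and 6 of 24 under 1 kb. In these classes the shares over all wild-type regions were 96.9%, 69.4%, 33.9%, 11.7% and 7.06%. A wide region is touched more easily by any list, so these shares do not compare like with like between classes. Within a class they can be set against the genome, whose shares include the distal regions. The distal share was higher in each class below 30 kb. Between 10 and 30 kb the intervals overlap (72.8 to 96.3% and 62.4 to 75.6%). At 30 kb or more, 6 of 6 (61.0 to 100%) is not resolved from 31 of 32 over the genome.

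The 4 widest knockout regions carried 36.2% of the knockout bases of the distal chain, and the 4 widest wild-type regions 21.3% of the wild-type bases. The widest wild-type region, from 145384581 to 145471388, was 86.8 kb wide, and knockout regions covered 78.1 kb of it. Its main partner was the widest knockout region, 90.6 kb from 145365627 to 145456199, which reached beyond it at the start and joined it with the wild-type region before it. The region from 146500426 to 146576744, 76.3 kb wide, was 99.8% covered by a knockout region of 80.5 kb. The region from 145695533 to 145769051, 73.5 kb wide, held a knockout region of 72.0 kb, with its start 120 bp from that of the wild-type region. In the last 2 of these 3 places the mark was called over nearly the same stretch in both libraries. The first was called in the knockout as 2 regions with a gap between them, and the smaller of these was 6.72 kb wide.

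Among the next widest regions the covered share varied much more. The wild-type region from 145540133 to 145573681, 33.5 kb wide, was 99.4% covered, by a knockout region of 53.0 kb that ran on to the next. The region from 146106586 to 146137444, 30.9 kb wide, was 92.5% covered. It was far lower in a pair of regions of similar width. In the 30.8 kb region from 145294197 to 145325029 the knockout list covered 7.13 kb (23.1%), and in the 29.1 kb region from 145628037 to 145657150 it covered 3.94 kb (13.5%), as 2 separate pieces. Width in wild type therefore did not fix how much of a region was called in the knockout.

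Over the 77 distal regions with a partner, 73.5% of the bases were in both lists, with a median of 87.9% per region. At least 90% of the region was covered in 35, less than 50% in 22 and less than 25% in 9. The 510 kb called in wild type alone were made up of 273 kb inside regions with a partner and 237 kb in regions without one. Trimmed regions thus held more of the wild-type-only bases than regions missing from the knockout list did.

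Regions paired 1 to 1 give a change in width region by region, but they leave out regions with more than 1 partner. The distal chain held 39 such pairs. In 32 the knockout region was the narrower one and in 7 the wider one, or 82.1% narrower, against 76.6% over all such pairs of the genome. Copies are counted here as separate pairs. Of the 7 wider pairs, 4 are regions of 1842 bp with equal partners, described further on. The median log2 ratio of knockout to wild-type width was -0.29 (quartiles -1.06 and -0.05), a width ratio of 0.820, against -0.16 over all pairs. Without the regions of the duplicated block, also described further on, the distal median was -0.46 over 35 pairs. Both edges lay within 500 bp of each other in 13 of the 39 pairs (33.3%), against 204 of 444 (45.9%) over all pairs. The values spread widely, from near equality to a ratio under 0.5 in 11 pairs, a ratio found in 84 of the 444 pairs of the genome. All distal regions linked by any overlap were also taken as groups, bridging knockout regions included. The knockout covered fewer bases than wild type in 41 of these 55 groups and more in 14. No such count was made over the genome.

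The 4 pairs with the smallest ratios were chosen after their values were seen. The smallest ratio was that of a 6422 bp wild-type region from 145191043 to 145197464, whose partner was 868 bp wide and ended 63 bp beyond it. A 3230 bp region from 145484719 to 145487948 had a partner of 550 bp. The partner of a 24185 bp region from 146671077 to 146695261 was 5306 bp wide, starting 21910 bp later and ending 3031 bp beyond it. A 13408 bp region from 145672810 to 145686217 had a partner of 3223 bp that ended inside it, near its end. In these 4 the knockout region lay at or over the right end of the wild-type one, but in the next 5 by ratio it ended well short of it, so pairs with low ratios had no common side. At the other extreme, the 16546 bp region from 146601296 to 146617841 had a partner of 16521 bp whose start differed by 1 bp and whose end differed by 24 bp. No knockout region in these 39 pairs was more than 1.03 times as wide as its wild-type region.

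**Figure D4:**
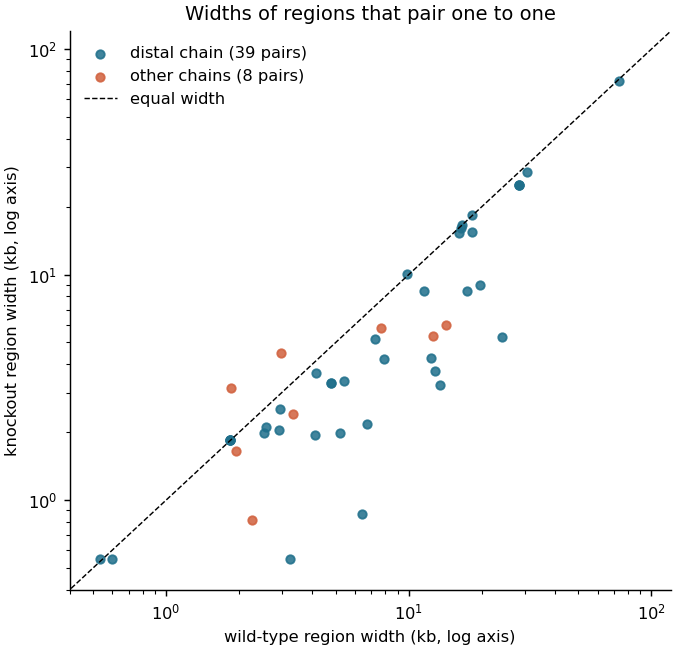
Width of the knockout region against width of the wild-type region, in kb on log axes, for regions that pair 1 to 1 in the distal chain (blue, 39 pairs) and in the other chains (orange, 8 pairs). The dashed line marks equal widths. In the distal chain 32 pairs lie below it, and the highest ratio of knockout to wild-type width is 1.03.

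Some knockout regions bridged gaps between wild-type regions. In the distal chain 15 knockout regions each spanned 2 or more wild-type regions, 37 overlaps in all, while 43 overlapped 1 and 1 overlapped none. The region from 146626328 to 146662702, 36.4 kb wide, spanned 4 wild-type regions and held 9.40 kb that were not called in wild type, more than any of the other 5 widest knockout regions. Those from 146756853 to 146779649 (22.8 kb), 146158563 to 146170154 (11.6 kb) and 145882210 to 145893529 (11.3 kb) each spanned 3. These 15 bridging regions held 47.4 of the 59.5 kb called in the knockout alone, or 79.8%. Most knockout-only sequence of the chain therefore lay in or beside bridged gaps, and 24 of the 59 knockout regions lay wholly inside wild-type ones. The knockout region without a partner, from 146825157 to 146827563, was 2.41 kb wide and lay 1792 bp from the nearest wild-type region.

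Among the 79 distal wild-type regions without a partner, 3 were at least 10 kb wide. The widest, from 146179826 to 146196978, measured 17.2 kb and lay 4047 bp from the nearest knockout region. The next, from 145903200 to 145914582 and from 146448555 to 146459937, had the same width, 11383 bp, and the same distance to the nearest knockout region, 9670 bp. Others in the list of the 8 widest measured 5.68 to 9.58 kb, such as the region from 145096622 to 145106204 (9.58 kb) and that from 146926933 to 146935005 (8.07 kb). Of the 79, 42 lay within 10 kb of a knockout region. Successive knockout regions of the chain were themselves a median of 11904 bp apart. Whether such distances follow from that density was not tested.

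A stretch of 14 successive wild-type regions occurred in duplicate in the distal chain. The first copy ran from 145832861 to 145953364 and the second from 146378217 to 146498724, each 121 kb long, with starts 545 kb apart. Of the 14 widths, 13 were equal to the base (7410, 641, 8317 and 11383 bp, for example), and the other differed by 1 bp (28515 and 28514 bp). The offset between copies was 545356 bp at the first region, 545355 bp at the next 8 and 545360 bp at the last 5. Arrangements repeated within 10 bp were found for 28 of 156 distal regions, or 17.9% (12.7 to 24.7%), all in this duplicate, against 6.64% over all wild-type regions.

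The knockout list showed the same pattern in both copies. Of the 14 regions 6 had a partner in each copy and 8 had none, and the status was the same at all 14. The first region of each copy had a partner of 25057 and 25056 bp, starting 2977 bp inside it. The second, 1842 bp wide, had a partner of 1854 bp in both copies. Regions 4, 5 and 6 were spanned in both by a knockout region of 11320 bp. Region 3 and regions 7 to 13 lacked a partner in both. At the fourteenth, 2447 bp wide, the knockout region began 167 bp before the wild-type one in each copy and then ran beyond the end of the repeated stretch, for 15.9 kb in all in the first copy and 80.5 kb in the second.

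**Figure D5:**
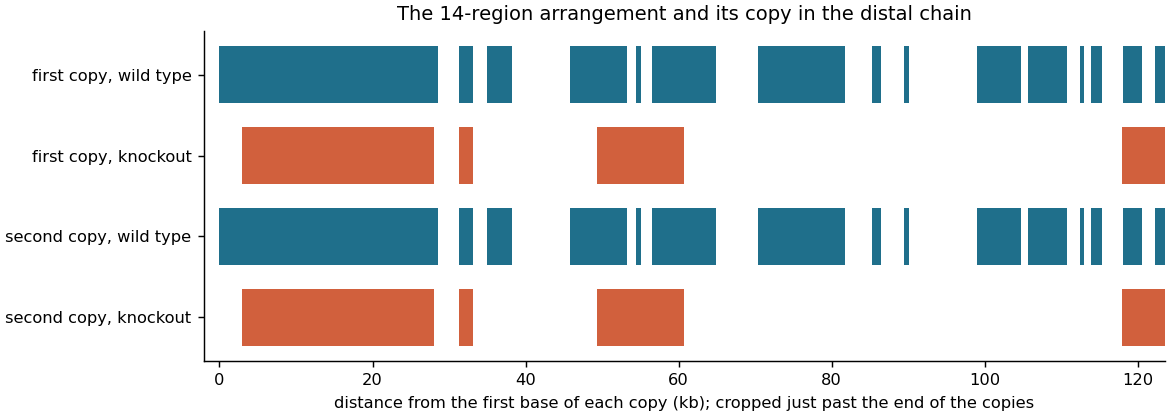
Wild-type (blue) and knockout (orange) regions of both copies of the 14-region arrangement, as distance in kb from the first base of each copy, cropped just past the end of the copies. The rows of the first and the second copy match to within 5 bp, and the knockout regions beneath regions 1, 2, 4 to 6 and 14 start at the same distances.

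Shorter likenesses extended beyond this block. Regions of exactly 1842 bp occurred 4 times, at 145864167, 146409522, 146747760 and 147002430, and each had a knockout partner of 1854 bp. At the first 3 the partner began 31 bp and ended 43 bp after the wild-type region, and at the last it began 43 bp and ended 31 bp before it, the mirror image. An inverted arrangement of 3 regions was found there, with widths of 28339, 1842 and 2895 bp from 146717063 to 146754690 and 2895, 1842 and 28344 bp from 146997341 to 147034973. Its 1842 bp and widest regions had a partner in both copies, and its 2895 bp region in neither.

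The region width of 658 bp occurred 5 times, at 145326679, 145625730, 145922309, 146198628 and 146467664, and none of these had a partner. The width of 4797 bp occurred at 146093501 and 147043338, each with a knockout partner of 3291 bp, placed 720 bp in from the start and 786 bp in from the end at the first, and 786 and 720 bp at the second. In all, 15 widths were shared by 2 to 5 distal wild-type regions, 35 regions together. All regions of a width had a partner in 6 cases, none had one in 9, and no width was mixed. Equal widths are common in the whole list. There 57.8% of all wild-type regions shared their exact width with another of the list, and 39.9% of those of at least 1 kb did. Distal matches were counted among the 156 regions of the chain only, so these shares are no direct background for them. Of the 35 regions, 9 lay outside the block and its copy.

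The placement of reads that fit several copies is not given in the sources used here. Signal on 1 copy therefore cannot be told apart here from that on another, and equal calls on copies are not separate measurements. With copies in the same order counted once, 71 of 142 distal regions had a partner, or 50.0%. Inverted copies and single regions of equal width were still counted each time.

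The first chain of the chromosome was the only other one with several regions in the knockout list. It ran from 3006529, the first listed position of chromosome 4, to 3250757. Its 26 wild-type regions covered 95.1 kb, 38.9% of its span. Of these 7 had a partner, or 26.9% (13.7 to 46.1%), and the 7 knockout regions covered 26.5 kb, a ratio of 0.279. Its widest region, 14.2 kb from 3176442 to 3190634, held a knockout region of 6.00 kb (42.3% of its bases). The next, 12.6 kb from 3145461 to 3158061, held one of 5.34 kb (42.4%). At the chain's start the 7.72 kb region from 3006529 to 3014247 held one of 5.83 kb, 75.5% of its bases.

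The other members of this chain that had a partner were narrower. Those from 3016620 to 3019943, 3099921 to 3102181 and 3109829 to 3111760 measured 3.32, 2.26 and 1.93 kb, and their partners 2.40, 0.814 and 1.65 kb. The region from 3091992 to 3094971, 2.98 kb wide, was the only one here with a wider partner, of 4.48 kb. Regions of 7.78 kb (from 3222590 to 3230367) and 7.38 kb (from 3163286 to 3170664) had none. As in the distal chain, most paired regions were narrower in the knockout list, and so were 76.6% of all such pairs of the genome.

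Without the first chain, an alternative chosen once the data had been seen, 1 of 78 regions of the other chains had a partner, or 1.28% (0.227 to 6.91%). The first chain thus supplied 7 of the 8 regions with a partner outside the distal chain. Of the 13 other chains, 11 held no knockout region at all, with 67 wild-type regions over 152 kb. By the same rule, 95 of the 201 chains on other chromosomes had no wild-type region with a partner. A count of 0 among 67 regions says only that these places were not called.

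The region with a partner lay in a chain of 11 regions from 61060943 to 61507919. It was 1845 bp wide, from 61399712 to 61401556, and lay wholly inside a knockout region of 3.14 kb, which extended past it on both sides. Regions of 1845 bp also lay at 60391367 and 61060943 without a partner. The region at 60391367 and its neighbour of 873 bp, at 60375517, recurred at 61399712 and 61383865 with the same widths and start-to-start distances within 3 bp. Here, in contrast to the distal block, the 1845 bp region had a partner in only 1 of the 2 copies. The 873 bp region had a partner in neither. The chain from 60281277 to 60393211, which holds the other copy, had 4 wild-type regions and no partner.

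A group of 5 chains between 41963799 and 42851423 repeated itself. The chain from 41963799 to 42039613 had widths of 3227, 1421, 1260 and 1945 bp, and that from 42338972 to 42414786 had the same widths in reverse order over the same length, 75.8 kb. Both ends of this series were found again from 42603938 to 42679581, inside the chain that starts at 42515526. The chains of 3 regions from 42166476 to 42218117 and from 42800450 to 42851423 were each made of widths 3154, 2331 and 2983 bp, in opposite order. None of the 20 regions of these 5 chains had a partner. As copies, they count for fewer separate places than chains.

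A similar pair lay further along. Of the 6 regions of the chain from 121411655 to 121625653, 4 (from 121547136 on, with widths of 1687, 2730, 2048 and 1848 bp) were found again at 121940014 in the chain of 12 regions from 121806905 to 122217304. The offset varied by 2 bp, and neither chain had a partner. Repeats in the same order held 20 of the 104 regions of the other chains, or 19.2% (12.8 to 27.8%), against 17.9% in the distal chain.

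The chains nearest to the distal one held no partner either. They ran from 143078748 to 143245590 with 9 regions, from 143376787 to 143700717 with 12 and from 143804222 to 143890195 with 4. The first of them was well covered in wild type, with 37.3 kb or 22.4% of its span, and held 3 of the 8 widest regions of the other chains. These measured 10.9 kb (143138795 to 143149727), 9.45 kb (143124507 to 143133960) and 8.05 kb (143101275 to 143109322), and the nearest knockout region lay 1900637 bp or more away. The first of these was the only region of 10 kb or more in the other chains that had no partner; over the whole wild-type list 73.5% of regions of that width had one.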

How the data were processed

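The deposited lists give, per region, a chromosome, a start, an end and a constant strand sign; the authors' files hold no score, fold or count. Bowtie and the mm9 build are named in the submitters' processing notes; not given in the sources used here are the Bowtie version, the region caller with its settings and use of input, and the placement of reads that fit more than 1 place. Starts were taken as counted from 0 and are printed counted from 1.

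Chains, overlaps and covered lengths were computed with Python 3.11.15, pandas 2.3.3 and numpy 2.4.6, and Wilson intervals with scipy 1.17.1. A recurring arrangement is a run of 2 or more successive regions, at most 100 kb apart, whose widths and start-to-start distances each match another run within 10 bp. The search for recurring arrangements was tested on a simulated list. The overlap counts were tested on the chromosome 4 wild-type regions, shifted or set against themselves. The chaining was not tested in this way. The members and lists were chosen with earlier results of these data known. Regions named follow a rule: in the distal chain the 8 widest wild-type regions of each kind (with a partner, and without), the 6 widest knockout regions, the 4 that span most wild-type regions, knockout regions without a partner, the largest recurring arrangements, and in the other chains each span, the regions with a partner and the 8 widest. The distal chain holds the only recurring arrangement there, so equal widths and single pairs were named after their values were seen. Alternatives changed the overlap, the width, the joining of neighbours, the chain limits and the treatment of recurring regions. The table of gene positions and promoters at hand is on GRCm38 and was not used. The KAP1 and input libraries were not analysed here.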

Additional observations from a re-analysis of the deposited data

How the results depend on the processing

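The share of distal wild-type regions with a partner, 49.4%, fell to 35.3% if a partner had to cover 50% of the region and to 22.4% under reciprocal overlap of 50%. It was 76.3% if knockout regions up to 10 kb away counted and 60.9% (14 of 23) once neighbours within 10 kb were joined. For all members, 32.7%, these settings gave 23.1%, 15.4%, 50.8% and 21.2%. The share in the other chains, 7.69%, was 1.28% without the first chain, the chain that holds 7 of its 8 regions with a partner, and 4.81% to 12.5% otherwise. The share of knockout members with a wild-type partner, 98.5%, was 59.7% with reciprocal overlap. The distal ratio of covered length, 0.645, was 0.650 for regions of at least 1 kb, 0.565 after joining and 0.667 without recurring regions. The median log2 width ratio, -0.29, was -0.23 over all 55 linked groups, -0.34 for wild-type regions of at least 1 kb and -0.46 without recurring regions. The cause of these changes was not tested, except that stricter overlap rules can only lower a share. Of 42 values under changed settings, 26 stayed within the main interval or the printed value and 16 moved. A reversal was defined for the median log2 width ratio only, and 0 of its values reversed. Changed chain limits left the distal members the same, so the distal values under them could not move. The share of distal regions in a recurring arrangement was 17.9% within 3 and 30 bp and for runs of 3, and 21.8% with inverted copies, a setting chosen with the data in view, as were the counting of copies once and the removal of the first chain. No paired analysis was possible because a genotype is represented by a single H3K9me3 library. Depth limits every value and is unknown, and no signal below the calling threshold is given.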
